A study of Caenorhabditis elegans with 6 samples.

Results

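The genes described here carry out RNA interference and related small RNA silencing in the nematode Caenorhabditis elegans: the Argonautes, the Dicer and ERI proteins, the RNA-dependent RNA polymerases, the Mutator and RDE proteins, the nuclear NRDE factors and the SID proteins of dsRNA transport. The list names 41 genes, and a gene was taken as measured where a probe set carried its symbol and no other. This held for 38 of the 41, out of 17118 genes named on the array, through 54 probe sets, and 13 of the 38 genes had more than 1. Each gene is given by its probe set with the highest mean over the arrays unless stated. The Argonaute genes ppw-1 and sago-2 had only a probe set that names both, and mut-2 had none under that symbol. RNA came from an ung-1 mutant, on 3 arrays, and from N2 worms, the usual wild type of the laboratory, on 3 arrays. The ung-1 product is the uracil-DNA glycosylase, a repair enzyme that takes uracil out of DNA. The labels call the replicates biological and give no allele, stage, tissue, culture condition or treatment, and the design text speaks of RNAi mutants where the labels speak of a mutant.

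In these pathways a small RNA bound to an Argonaute guides it to matching transcripts. Dicer cuts long dsRNA or hairpins into primary small RNAs, and in C. elegans RNA-dependent RNA polymerases then copy the target into abundant secondary small RNAs that are bound by worm-specific Argonautes, the WAGO group. Many of these proteins sit in germ granules of the germline, where the piRNA Argonaute PRG-1, CSR-1 and the Mutator foci monitor transcripts and pass silencing on to progeny. Others act in somatic cells, such as the microRNA Argonautes ALG-1 and ALG-2 and SID-2, which takes up dsRNA in the intestine.

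Each value is the intensity of a probe set, in arbitrary units, and cannot be set against that of another probe set. Log2 fold changes or differences, mutant minus N2, were taken from log2(intensity + 16) by limma over all 22548 probe sets, with n = 3 in each group. The ung-1 probe set, as a check of the labels, gave 52.6 ± 4.3 in the mutant and 262 ± 30.6 in N2 (SD, n = 3 each), with all mutant arrays below all N2 arrays and a log2 fold change of -2.01 (SE 0.15). The labels give no allele, so whether the change in ung-1 touches the target of this probe set is not known. Its limma adjusted p was 0.0765 over all probe sets, and no probe set passed 0.05. The arrays had medians from 152.82 to 160.985 in the mutant and from 158.315 to 167.85 in N2. The 3' over 5' ratio of control probe sets is lower in more intact RNA. For GAPDH it ran from 5.01 to 8.77 in the mutant and from 8.30 to 11.8 in N2. For actin it ran from 2.89 to 4.44 in the mutant and from 3.72 to 5.23 in N2. For ubiquitin it ran from 3.95 to 4.41 in the mutant and from 4.28 to 5.32 in N2. For catalase it ran from 25.9 to 32.2 in the mutant and from 28.3 to 31.0 in N2. The ranges of the groups overlapped for each control, and the part of these ratios in the results was not tested. None of the 6 tissue marker lists, described below beside the results they move with, had a member at 0.

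No small RNA pathway gene passed the test for a difference between the mutant and N2. None of the 38 genes passed a limma adjusted p of 0.05 (0 of all 22548 probe sets did), none had an unadjusted p under 0.05 (1.86% of all named genes did), and each adjusted p was 0.999. With 3 arrays a group an exact permutation test of 1 gene cannot give a p below 0.1. In none of the genes did the mutant values lie apart from the N2 values, while the groups lay apart in 6.41% of all named genes. The fold change was positive in 22 genes and negative in 16, against 41.7% positive over all named genes, with a median of 0.025 against -0.04. With mutant replicate 1 left out 14 were positive, and with mutant replicate 3 or N2 replicate 3 left out 30 were. Fold changes ran from -0.32 for eri-1 to 0.44 for dcr-1. In size, 7 of the 38 were larger than their standard error, against 4764 of all 17118 named genes. For 27 of the 38 the 95% confidence interval stayed within a 2-fold change in either direction, against 14040 of the 17118. Among the remaining 11, the interval of alg-1 ran from -1.64 to 1.76 and that of csr-1 from -0.62 to 1.5. With 3 arrays a group, differences inside such intervals are not excluded.

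**Figure D1:**
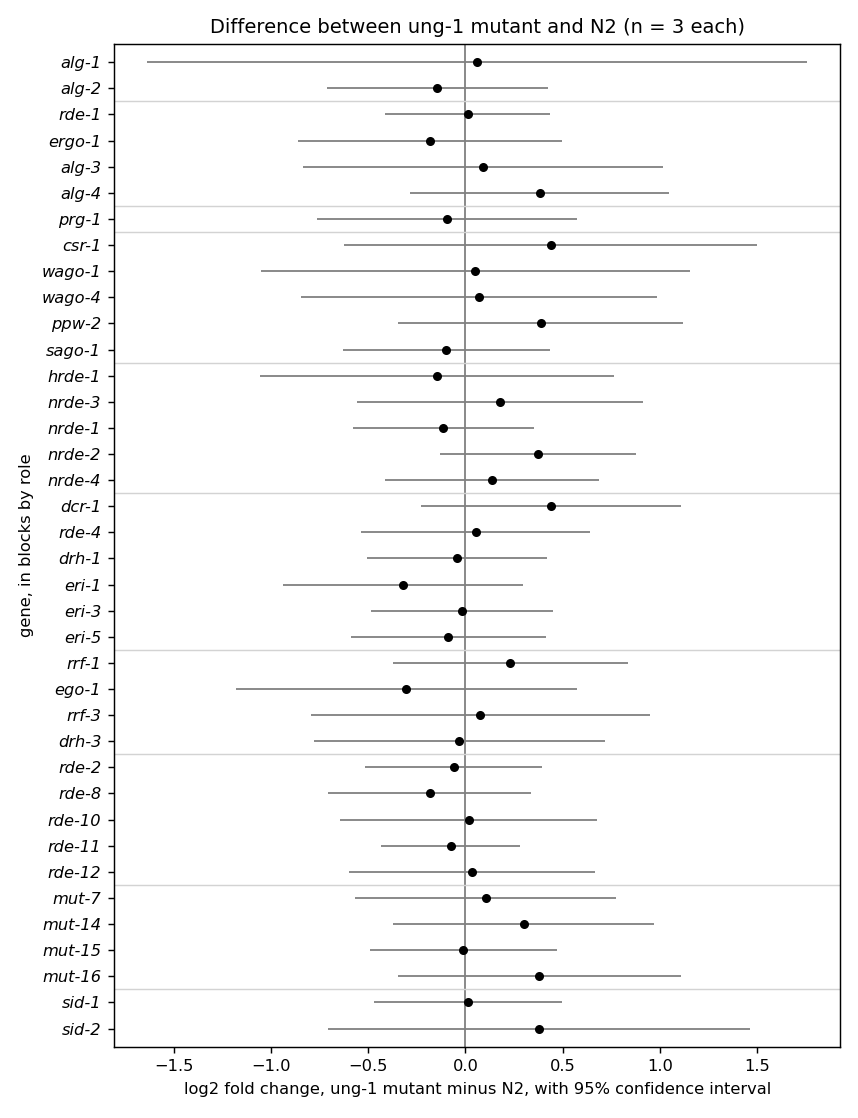
Log2 fold change of each of the 38 genes, ung-1 mutant minus N2, on the x axis, with genes down the y axis in blocks by role. Points are limma estimates from 3 mutant and 3 N2 arrays and bars are 95% confidence intervals. Every interval crosses 0, from the narrow one of rde-11 to the wide one of alg-1.

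Among the microRNA Argonautes, alg-1 had the widest spread of all 38 genes. Its chosen probe set read 294, 319 and 1338 on mutant replicates 1, 2 and 3, against 815, 198 and 680.1 on N2 replicates 1, 2 and 3. The highest and the lowest arrays differed 6.75-fold, with mutant replicate 3 at the top and N2 replicate 2 at the bottom. Each group spanned low and high values, and the log2 fold change was 0.061 (SE 0.72). In the paralogue alg-2 the same arrays were the highest of the mutant and the lowest of N2 over a smaller range, with 657, 524 and 846 in the mutant and 785, 573 and 878 in N2 on replicates 1, 2 and 3 of each (log2 difference -0.14, SE 0.24), and the groups overlapped.

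The primary Argonautes bind the first small RNAs made from dsRNA or by the ERI pathway. The gene rde-1, needed for RNAi by external dsRNA, was the steadiest of them in N2, at 1517, 1179 and 1023 in the mutant and 1193, 1226 and 1222 in N2 (log2 difference 0.012, SE 0.18). The gene ergo-1, which acts in oocytes and embryos, read 531, 419 and 432 on mutant replicates 1, 2 and 3, against 647, 329.8 and 666 on N2 replicates 1, 2 and 3, with N2 replicate 2 the lowest array and overlapping groups (log2 difference -0.18, SE 0.29). The paralogues alg-3 and alg-4 act in spermatogenesis. The alg-3 probe set read 241, 378 and 147 on mutant replicates 1, 2 and 3, against 176, 177 and 354 on N2 replicates 1, 2 and 3 (log2 difference 0.091, SE 0.39). It was low on mutant replicate 3 and N2 replicates 1 and 2. The chosen probe set of alg-4 gave 491, 527 and 885 on mutant replicates 1, 2 and 3, against 430.4, 383 and 614 on N2 replicates 1, 2 and 3, highest on mutant replicate 3, with overlapping groups (log2 difference 0.38, SE 0.28). The remaining 2 probe sets of alg-4 had the order of alg-3 on the mutant arrays instead, at 131, 229 and 108 in the mutant and 114, 118.6 and 202 in N2 on the dimmer of them, and all of these probe sets can match several transcripts. The median of the sperm markers, relative to each gene's mean, was 0.16, 0.32 and -0.29 on mutant replicates 1, 2 and 3 and -0.34, 0.03 and 0.15 on N2 replicates 1, 2 and 3, low on mutant replicate 3 and N2 replicate 1.

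The Argonautes of the piRNA pathway and of secondary small RNAs varied mainly between arrays of the same genotype. The piRNA Argonaute gene prg-1 read 2059, 1902 and 1056 on mutant replicates 1, 2 and 3, against 1429.7, 1776 and 1989.7 on N2 replicates 1, 2 and 3 (log2 difference -0.095, SE 0.28), with mutant replicate 3 the lowest array. The germline gene csr-1, whose protein licenses expressed germline transcripts, read 859, 1448 and 406 on mutant replicates 1, 2 and 3, against 611, 440.2 and 745 on N2 replicates 1, 2 and 3. Its mutant mean was the higher, at 905 ± 523 in the mutant and 599 ± 153 in N2 (SD, n = 3 each), but the mutant arrays held both the highest and the lowest value (log2 difference 0.44, SE 0.45). The gene wago-1, a germ granule WAGO, gave 2967, 3001 and 1179.8 on mutant replicates 1, 2 and 3, against 2122, 1318 and 3372 on N2 replicates 1, 2 and 3, low on mutant replicate 3 and N2 replicate 2 and near the same level on 3 of the remaining 4 arrays (log2 difference 0.052, SE 0.47). Its relative wago-4, which carries silencing between generations, was also low on mutant replicate 3 and N2 replicate 2, at 206, 198 and 108 in the mutant and 180.3, 85.9 and 239.6 in N2 (log2 difference 0.069, SE 0.39). The gene ppw-2, also known as wago-3, read 521, 614 and 330.4 on mutant replicates 1, 2 and 3, against 349, 259.8 and 504.5 on N2 replicates 1, 2 and 3. Again mutant replicate 3 and N2 replicate 2 were the lowest of their groups (log2 difference 0.39, SE 0.31). By contrast sago-1, a secondary Argonaute, read 1898, 2182 and 2840.3 on mutant replicates 1, 2 and 3, against 2116, 3094 and 2205 on N2 replicates 1, 2 and 3, highest on those same 2 arrays (log2 difference -0.10, SE 0.22). The genes csr-1, wago-1, wago-4 and prg-1 are of the germline, and all but prg-1 were lowest of their group on both mutant replicate 3 and N2 replicate 2. The probe set shared by ppw-1 and sago-2 gave 2575, 2416 and 1716 in the mutant and 1955, 2150.1 and 2387 in N2 (log2 difference 0.03, SE 0.20) and says nothing of either gene alone.

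In the nuclear branch, small RNAs guide silencing at the gene itself. The germline nuclear Argonaute gene hrde-1 read 1345, 776 and 546 on mutant replicates 1, 2 and 3, against 917, 642 and 1322 on N2 replicates 1, 2 and 3 (log2 difference -0.15, SE 0.38), and the somatic one, nrde-3, 551, 513 and 545 on mutant replicates 1, 2 and 3, against 599.8, 276 and 629 on N2 replicates 1, 2 and 3 (log2 difference 0.18, SE 0.31). The low array of nrde-3 was N2 replicate 2, with the remaining 5 close together. The gene nrde-2, whose protein joins both Argonautes at nascent transcripts, had the smallest unadjusted p of all 38 genes, 0.122 in limma with an adjusted p of 0.999. It read 461, 660.0 and 549 on mutant replicates 1, 2 and 3, against 476, 329 and 475 on N2 replicates 1, 2 and 3. The mutant mean was 557 ± 99.8, against 427 ± 84.5 in N2 (SD, n = 3 each), a log2 fold change of 0.38 (SE 0.21, 95% confidence interval -0.13 to 0.88), and mutant replicate 1 lay below 2 of the N2 arrays. Of their partners, nrde-1 read 893, 1015 and 707 in the mutant and 956, 791 and 1076 in N2 (log2 difference -0.11, SE 0.20) and nrde-4 1641, 1427 and 959 in the mutant and 1146, 1063 and 1381 in N2 (log2 difference 0.14, SE 0.23). The groups overlapped in both, with mutant replicate 3 the lowest array.

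Dicer and its partners make the primary small RNAs. The gene dcr-1, the only Dicer gene of the worm, read 1222, 1362 and 1044 on mutant replicates 1, 2 and 3, against 900.0, 596 and 1274 on N2 replicates 1, 2 and 3, a log2 fold change of 0.44 (SE 0.28, 95% confidence interval -0.23 to 1.11), with an unadjusted p of 0.162 in limma. The value on N2 replicate 3 lay above 2 of the mutant arrays, and N2 replicate 2 was the lowest array. The gene of the dsRNA-binding partner, rde-4, read 1858, 1898 and 1160.5 in the mutant and 1275, 1523 and 1883 in N2 (log2 difference 0.054, SE 0.25), lowest on mutant replicate 3. The helicase gene drh-1, which serves in antiviral RNAi, read 667, 522 and 508 in the mutant and 569, 484 and 706 in N2 (log2 difference -0.043, SE 0.20), with overlapping groups. The exonuclease gene eri-1, a negative regulator of RNAi, had the lowest log2 fold change of the 38 genes, -0.32 (SE 0.26, 95% confidence interval -0.94 to 0.30). It read 743, 931 and 826 on mutant replicates 1, 2 and 3, against 814, 1545 and 897 on N2 replicates 1, 2 and 3. The value on N2 replicate 2 alone stood apart, and the remaining 5 arrays lay together. On the second eri-1 probe set N2 replicate 2 was not high, at 449, 447 and 291 in the mutant and 342, 369 and 415 in N2, and the log2 fold change was 0.052 (SE 0.21). The ERI complex genes eri-3 and eri-5 had log2 differences of -0.018 (SE 0.20) and -0.088 (SE 0.21), and both were lowest on mutant replicate 3, at 193 and 138, against 229 ± 21.4 and 193 ± 33.2 in N2 (SD, n = 3).

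The RNA-dependent RNA polymerases and their helicase partner drh-3 had mutant replicate 3 as the lowest of the 6 arrays in all 4 genes. The germline polymerase gene ego-1 read 944, 567 and 318 on mutant replicates 1, 2 and 3, against 668, 610.4 and 806 on N2 replicates 1, 2 and 3 (log2 difference -0.30, SE 0.37). The gene rrf-1, whose protein amplifies small RNAs in somatic RNAi, read 447, 503.7 and 262 in the mutant and 295, 334 and 364 in N2 (log2 difference 0.23, SE 0.25), and rrf-3, which acts with the ERI complex, 471, 464 and 221 in the mutant and 379.6, 229 and 470.3 in N2 (log2 difference 0.077, SE 0.37). The helicase gene drh-3 read 1225, 1138 and 568 on mutant replicates 1, 2 and 3, against 928, 795 and 1149 on N2 replicates 1, 2 and 3 (log2 difference -0.031, SE 0.31). Mutant replicates 1 and 2 stood at or near the top in rrf-1, rrf-3 and drh-3, so that each of these genes had high and low arrays within the mutant, and all groups overlapped.

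The Mutator proteins gather in foci at the nuclear rim where secondary small RNAs are made, with MUT-16 as the scaffold. The gene mut-16 read 831, 738 and 504.4 on mutant replicates 1, 2 and 3, against 541, 349 and 728 on N2 replicates 1, 2 and 3 (log2 difference 0.38, SE 0.31, 95% confidence interval -0.35 to 1.11), with overlapping groups. The helicase gene mut-14 read 953, 1112 and 564 in the mutant and 551, 807 and 714 in N2 (log2 difference 0.30, SE 0.28), and the exonuclease gene mut-7 745, 724 and 394 in the mutant and 467, 530.5 and 689 in N2 (log2 difference 0.10, SE 0.28). The gene mut-15, a Mutator focus component, read 324, 329.5 and 209 in the mutant and 266, 289 and 298 in N2 (log2 difference -0.011, SE 0.20). In all 4 genes mutant replicates 1 and 2 were above the N2 mean and mutant replicate 3 was below it. The nucleotidyltransferase gene listed on the array as rde-3, another name of mut-2, lay outside the rule. It gave 1521, 1355 and 712 in the mutant and 1202, 1236 and 1535 in N2 (log2 difference -0.21, SE 0.30), again lowest on mutant replicate 3. Among the RDE factors rde-8, an endonuclease gene, read 2781, 2683 and 1829 on mutant replicates 1, 2 and 3, against 2251, 3002 and 2973 on N2 replicates 1, 2 and 3 (log2 difference -0.18, SE 0.22). The groups overlapped and mutant replicate 3 was lowest. The genes rde-10 and rde-11, whose proteins form a complex in RNAi amplification, had log2 differences of 0.017 (SE 0.28) and -0.077 (SE 0.15). The rde-10 probe set was at 378 on mutant replicate 3 and 377 on N2 replicate 2, and at 566 or more on the remaining 4 arrays. The rde-11 probe set was the steadiest of the 38, from 245 to 318 over the 6 arrays. The Mutator partner gene rde-2 read 1126, 1037 and 852 in the mutant and 991, 898 and 1273 in N2 (log2 difference -0.061, SE 0.19), and the helicase gene rde-12 1284, 967 and 1956 in the mutant and 1359, 1151 and 1448 in N2 (log2 difference 0.033, SE 0.27), highest on mutant replicate 3.

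Of the dsRNA transport genes, sid-1, which encodes the dsRNA channel of the cell membrane, read 332, 322 and 221 in the mutant and 266, 259 and 333 in N2 (log2 difference 0.014, SE 0.20), lowest on mutant replicate 3. The intestinal receptor gene sid-2 read 517, 673 and 1909 on mutant replicates 1, 2 and 3, against 574, 696 and 751 on N2 replicates 1, 2 and 3. Only mutant replicate 3 was high, and the mutant mean of 1033 ± 763 against 674 ± 90.7 in N2 (SD, n = 3 each) rests on that array. Without it the log2 fold change was -0.18 (SE 0.20) and with it 0.38 (SE 0.46). Markers of the intestine went both ways on mutant replicate 3, where the regulator elt-2 was at 1476 against 441 to 872 on the remaining 5 arrays, and the protease asp-1 at 5339.9 against 6263 to 15456. The peptide transporter gene pept-1, another intestine marker, had all mutant arrays above all N2 arrays, at 495, 749.8 and 559 in the mutant and 371, 215 and 366 in N2 (log2 difference 0.91, SE 0.26, limma adjusted p 0.999). The summed intensity of the 8 intestine markers was 16442 to 31771 in the mutant and 15981 to 30734 in N2. Such a sum weighs bright probe sets most, here asp-1 at 15456 and cpr-1 at 9852 on N2 replicate 2. The part of the intestine markers in the sid-2 value was not tested.

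**Figure D2:**
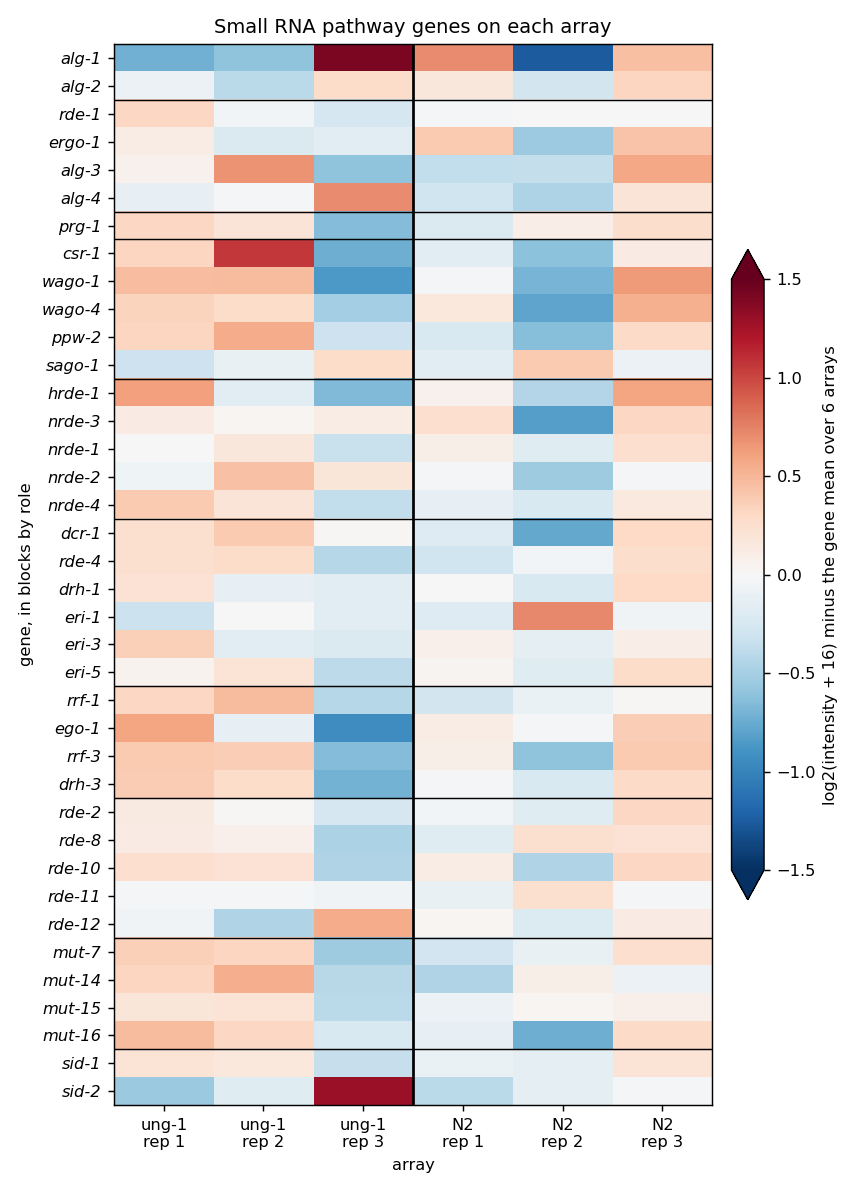
Each of the 38 genes (rows, in blocks by role) on each of the 6 arrays (columns, ung-1 mutant left of N2). Colour gives log2(intensity + 16) minus the gene's own mean over the 6 arrays, red above and blue below. Mutant replicate 3 and N2 replicate 2 are blue in most rows and N2 replicate 3 is red in most, with alg-1, alg-4, rde-12 and sid-2 red on mutant replicate 3.

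The small RNA genes shared an array pattern that crossed the genotypes. Its low arrays, mutant replicate 3 and N2 replicate 2, had the lowest correlation of any pair of arrays over all probe sets, 0.924. They also had the lowest limma array weights, 0.473 and 0.458, against 0.688 to 3.52 on the remaining arrays. Mutant replicate 3 was the lowest of the 6 arrays in 20 of 38 genes (52.6%), against 28.9% of all named genes. N2 replicate 2 was lowest in 11 (28.9%, against 14.3%). It was highest in 4 of the 38 genes, against 33.2% of all named genes. Mutant replicate 3 was the lowest mutant array in 28 of 38 genes, against 42.1% of all named genes, and N2 replicate 2 the lowest N2 array in 25, against 28% of all named genes. In 18 genes (47.4%) each of these arrays was the lowest of its group, against 10.2% of all named genes. Relative to each gene's mean, the median of the 38 genes was 0.23, 0.18 and -0.34 on mutant replicates 1, 2 and 3 and -0.064, -0.22 and 0.26 on N2 replicates 1, 2 and 3. The ratio of the highest to the lowest array had a median of 2.01 in the 38 genes and 1.71 over all named genes. These shares are given as a description, since genes on the same array are not independent.

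Markers of the germline moved with this pattern, more clearly on mutant replicate 3 than on N2 replicate 2. The 19 germline and oocyte markers, among them glp-1, gld-1 and the P granule gene pgl-1, had medians of 0.34, 0.15 and -0.58 on mutant replicates 1, 2 and 3 and 0.019, -0.14 and 0.31 on N2 replicates 1, 2 and 3. Mutant replicate 3 was the lowest of the 6 arrays in 18 of 19, with gld-1 at 2778, 2223 and 1147 in the mutant and 2084, 1541 and 2794 in N2 and glh-1 at 1824, 1626 and 798 in the mutant and 1206, 1362 and 1663 in N2. N2 replicate 2 was the lowest of the 6 arrays in 0 of the 19. It was the lowest N2 array in 14 of them (73.7%, against 28% of all named genes), gld-1 but not glh-1 among these. Their summed intensity was 39609.6 to 65833 in the mutant and 51605 to 70492 in N2, and the lowest single value was 258. Bright probe sets weigh most in such sums, here cpg-2 at 15804 and cpg-1 at 8842 on mutant replicate 1. The 14 sperm markers with a probe set of their own, of 17 listed, summed to 2464 to 5761 in the mutant and 2538 to 4189.7 in N2. In RNA of whole tissues or animals, fewer cells of a type and less RNA per cell cannot be told apart, and the part of germline amount in the small RNA values was not tested. The log2 fold change was negative in 15 of the 19 germline markers and positive in 4 (21.1%, against 41.7% of all named genes). In 2 of the 19, oma-2 and cpg-1, all mutant arrays lay below all N2 arrays, as in 4.46% of all named genes, with log2 differences of -0.41 (SE 0.14) and -0.38 (SE 0.16) and a limma adjusted p of 0.999.

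The microRNA Argonautes, only 2 genes, were high on mutant replicate 3 on their chosen probe sets, while the other 2 probe sets of alg-1, given with the probe sets below, were not. The second alg-2 probe set, also given below, had only a 1.23-fold range over the arrays. The median deviation of alg-1 and alg-2 was -0.40, -0.50 and 0.84 on mutant replicates 1, 2 and 3 and 0.44, -0.76 and 0.39 on N2 replicates 1, 2 and 3, and that of 11 neuron markers was -0.61, -0.092 and 0.37 on mutant replicates 1, 2 and 3 and 0.68, -0.71 and 0.065 on N2 replicates 1, 2 and 3. Both were low on mutant replicate 1 and N2 replicate 2 and high on mutant replicate 3 and N2 replicate 1. They were less alike on mutant replicate 2, at -0.50 and -0.092, and on N2 replicate 3, at 0.39 and 0.065. The synaptic gene unc-13, for example, read 197, 340.2 and 731 in the mutant and 696, 159 and 385 in N2. The neuron markers summed to 10953 to 22623 in the mutant and 12092 to 22969 in N2, the 10 body wall muscle markers to 18249 to 32126 in the mutant and 22490.1 to 30474 in N2 and the 8 epidermis markers to 26204 to 31280.2 in the mutant and 20022 to 28948 in N2. In these sums too the bright probe sets weigh most, and the part of these tissues in the Argonaute values was not tested.

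**Figure D3:**
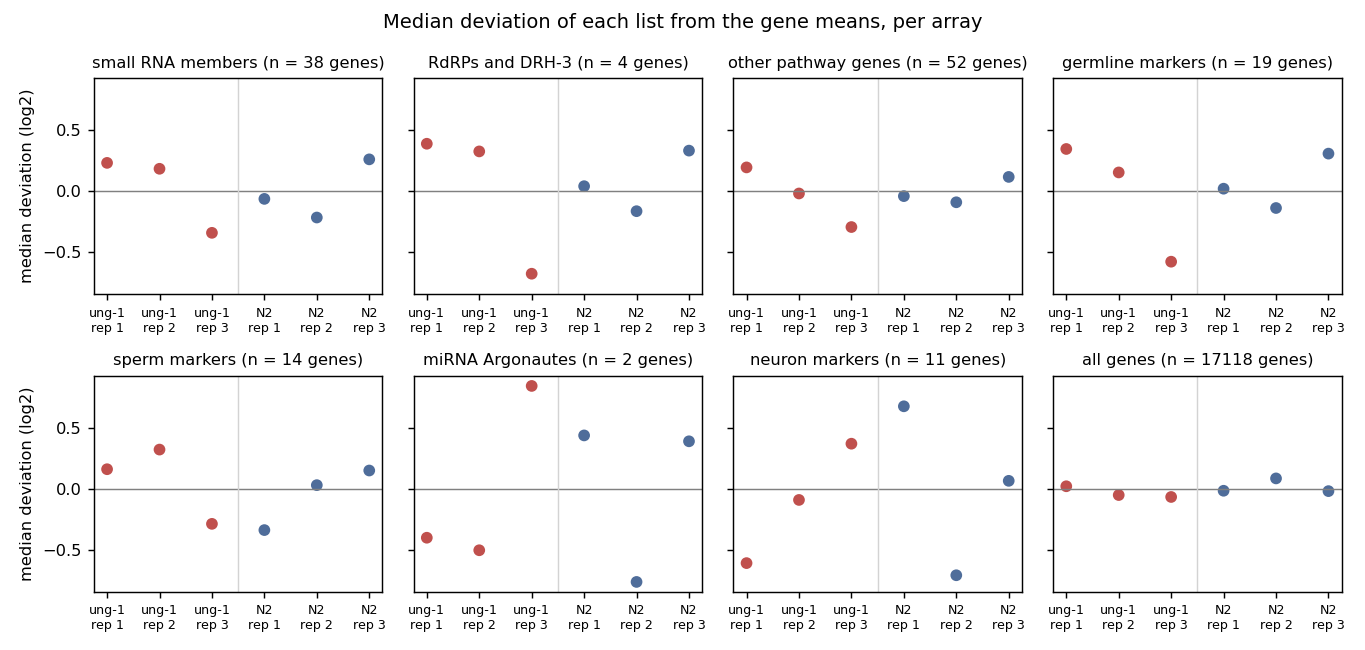
Median deviation from the gene mean, in log2 units on the y axis, of 8 lists of genes on each array (x axis; red points are ung-1 mutant arrays, blue points N2 arrays). The small RNA genes and the germline markers are lowest on mutant replicate 3, the 2 microRNA Argonautes and the neuron markers are high there and lowest on N2 replicate 2, and the median of all genes stays within 0.1 of 0.

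Without mutant replicate 3 and N2 replicate 2, a setting chosen after seeing the data, the comparison had 2 arrays in each group. Still no gene passed limma's adjusted threshold, and 5 of 38 had an unadjusted p under 0.05, against 5.53% of all named genes. These were alg-1 at -1.24 (SE 0.19), alg-2 at -0.49 (SE 0.20), csr-1 at 0.71 (SE 0.28), mut-14 at 0.70 (SE 0.21) and rrf-1 at 0.51 (SE 0.19), named after their values were seen. Limma's adjusted p ran from 0.921 to 0.932 for them. The groups lay apart in 13 of 38 genes, against 33.6% of all named genes. The median log2 fold change was 0.056 for the 38 genes and 0.086 for the germline markers, which had -0.12 with all arrays. Without mutant replicate 3 alone, 8 genes had groups apart (19.2% of all named genes) and 3 an unadjusted p under 0.05 (3.79%). Among the 21 genes measured without probe sets of several transcripts, 8 had a positive fold change (38% of all named genes left), 1 an unadjusted p under 0.05 (2.19%) and 2 groups apart (6.91%). With array weights 2 genes had an unadjusted p under 0.05, against 6.65% of all named genes.

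Probe sets of the same gene did not always follow each other. Over all 54 probe sets of the 38 genes, 3 had an unadjusted p under 0.05 (5.56%, against 1.93% of all probe sets), all with a negative fold change (1.24% of all probe sets) and none past the adjusted threshold. A dim probe set of hrde-1 read 68.6, 65.8 and 37 in the mutant and 109, 148 and 96.4 in N2, with the groups apart (log2 difference -0.88, SE 0.24, limma adjusted p 0.999). The third hrde-1 probe set, at 1122, 955 and 467 in the mutant and 799, 379 and 1124 in N2, had a log2 fold change of 0.18 (SE 0.47) against -0.15 on the chosen one, and on both mutant replicate 3 and N2 replicate 2 were the lowest of their groups. The dim hrde-1 set is of a kind that can match several transcripts. A dim rde-8 probe set also had its groups apart, at 42, 50.2 and 47.7 in the mutant and 70.7, 70.5 and 59.1 in N2 (log2 difference -0.40, SE 0.14). The second rrf-1 probe set gave 352, 257 and 222 in the mutant and 392, 446 and 351 in N2 (log2 difference -0.51, SE 0.20), opposite in sign to the chosen set, with mutant replicate 1 just above N2 replicate 3. A dim mut-7 probe set read 149, 90.9 and 37.1 in the mutant and 138, 129.7 and 149.9 in N2 (log2 difference -0.66, SE 0.39), with mutant replicate 3 lowest as on the chosen one. Of alg-1, the remaining 2 probe sets were far steadier than the chosen one, at 244, 218 and 218 in the mutant and 298, 202 and 264 in N2 on the brighter and 151, 165 and 139 in the mutant and 172, 161 and 156 in N2 on the dimmer, with log2 differences of -0.14 (SE 0.18) and -0.095 (SE 0.14). The 6.75-fold range of alg-1 was seen on the chosen probe set only. The second alg-2 probe set was steady too, at 91.9, 101 and 110 in the mutant and 88.95, 89.5 and 103 in N2. Its log2 difference was 0.089 (SE 0.14), against -0.14 on the chosen one. The second rde-12 probe set read 43.9, 35 and 62.7 in the mutant and 43.1, 41.3 and 1559 in N2, high on N2 replicate 3 alone, with a log2 fold change of -1.49 (SE 1.22). In 3 of the 54 the mutant arrays all lay below the N2 arrays, against 4.38% of all probe sets. These were the dim sets of hrde-1 and rde-8 and the second set of drh-1, which lay near the floor of the arrays, at 9.73, 10.9 and 9.59 in the mutant and 15.8, 11.9 and 12.4 in N2, and 5 of its 6 values were restored from date cells.

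**Figure D4:**
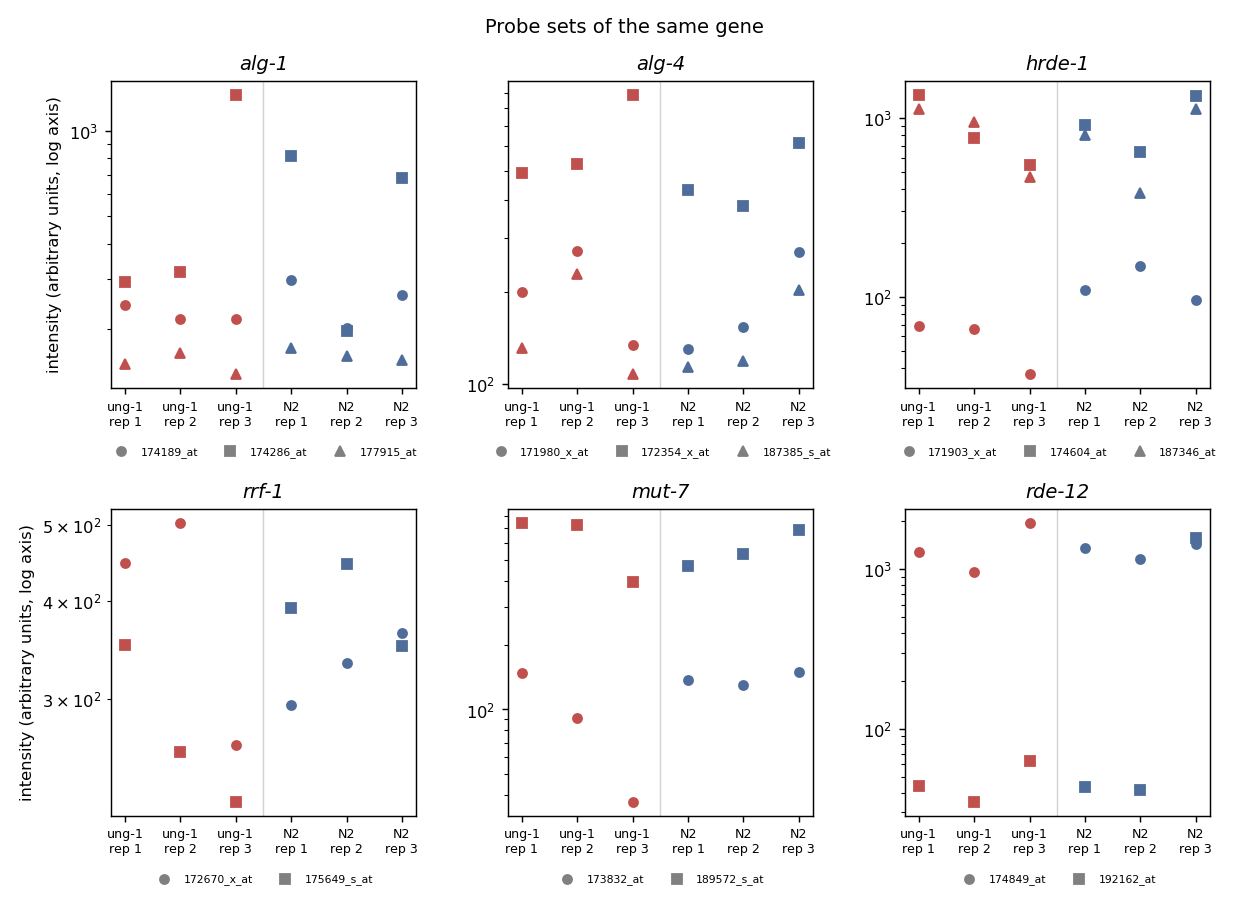
Intensity (y axis, log scale, arbitrary units) of every probe set of alg-1, alg-4, hrde-1, rrf-1, mut-7 and rde-12 on each array (x axis; red ung-1 mutant, blue N2, marker shape by probe set). The squares of alg-1 span 198 to 1338 while its circles and triangles hardly move, and the squares of rde-12 stand near 40 on 4 arrays, at 62.7 on mutant replicate 3 and at 1559 on N2 replicate 3.

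Other genes of the pathway also held no call. Of 56 listed, 52 had a probe set of their own, 23 with a positive and 29 with a negative fold change and a median of -0.028. Their log2 differences ran from -0.48 (SE 0.28) for pid-1, a piRNA pathway gene, to 0.59 (SE 0.26) for haf-6, an ABC transporter gene needed for RNAi. None passed the adjusted threshold in limma or an unadjusted p of 0.05, in either direction. The groups lay apart in 1 of them, against 6.41% of all named genes. This was xrn-1, a gene of cytoplasmic RNA decay by exonuclease, at 62.7, 64.2 and 83.1 in the mutant and 52, 42.9 and 57.7 in N2 (log2 difference 0.36, SE 0.17, 95% confidence interval -0.035 to 0.76). Mutant replicate 3 was the lowest array in 27 of the 52, and the median deviation was 0.19, -0.02 and -0.29 on mutant replicates 1, 2 and 3 and -0.041, -0.092 and 0.12 on N2 replicates 1, 2 and 3. Among the Argonautes here, prg-2, a close paralogue of prg-1, gave 1674, 1676 and 839.5 in the mutant and 1294, 607 and 1497 in N2. The probe set of prg-1, unlike that of prg-2, is of a kind that can match several transcripts. The Argonaute gene alg-5 read 1450.5, 1051 and 438 in the mutant and 1286, 885 and 1400.0 in N2, lowest on mutant replicate 3. The RNA-dependent RNA polymerase gene rrf-2 went the opposite way, with 90, 119.4 and 631 on mutant replicates 1, 2 and 3, against 150.2, 167 and 148 on N2 replicates 1, 2 and 3 (log2 difference 0.30, SE 0.64). Its value on mutant replicate 3 was more than 3 times that on any remaining array. The drosha gene drsh-1 and its partner pash-1, which cut microRNA precursors in the nucleus, had log2 differences of -0.0064 (SE 0.22) and 0.11 (SE 0.28), and the microRNA effector genes ain-1 and ain-2 had log2 differences of 0.24 (SE 0.32) and -0.047 (SE 0.26). The genes prg-2, alg-5, rrf-2, drsh-1, pash-1, ain-1 and ain-2 were chosen after their values were seen.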

How the data were processed

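The 6 samples, 3 from the ung-1 mutant and 3 from N2, gave total RNA by Trizol extraction, which per the labels' protocols was biotin-labelled for Affymetrix arrays of the worm genome. The deposited table holds 1 linear intensity per probe set and array for 22625 probe sets. The sources used here do not give the summarisation, background correction or scaling, and no detection calls were used. Of 1364 large whole numbers, 1361 equal spreadsheet day counts and were turned back into values from 1.17 to 31.12. Probe sets were named from the platform annotation, where 20766 of the 22548 tested carried 1 symbol, checked by gene identifier against RefSeq genes of WBcel235. The 77 control probe sets were left out.

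Log2(intensity + 16) was tested with limma 3.58.1 in R 4.3.3 (two-sided, Benjamini-Hochberg over 22548 probe sets, threshold 0.05), and the fit was tested on simulated data. The offset understates changes of dim probe sets, and the number of arrays limits the precision. The rule for genes given on every array took those with groups apart, the 5 with the smallest unadjusted p in each direction and genes whose probe sets disagree. The genes alg-1, alg-3, prg-1, csr-1, wago-1, wago-4, sago-1, nrde-3, drh-3, sid-2 and others given in this way beyond it were picked with their values in view. The members and lists were chosen with earlier results of these data known. The labels call the replicates biological and do not say whether they came from separate cultures. The p-values set the group difference against the spread between these samples within the groups. Tables were made with pandas 2.3.3 and numpy 2.4.6 in Python 3.11.15 and figures with matplotlib 3.10.9. Alternatives covered the reading of date cells, offset, scaling, filter, choice of probe set, variance model, array weights, replicate block and each array left out.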

Additional observations from a re-analysis of the deposited data

How the results depend on the processing

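In none of the 19 alternatives run did any of the 38 genes pass the adjusted threshold, and 8 of them kept their sign wherever they were measured. These were csr-1 (positive) and eri-1 (negative) in all 19, and ppw-2, nrde-2, dcr-1, mut-14 and mut-16 (positive) and ergo-1 (negative) in the 18 that leave in probe sets of several transcripts. Some settings, such as the intensity trend and the replicate block, leave the fold changes as they are. In others a kept sign came near 0, at 0.015 for csr-1, -0.026 for eri-1 and -0.014 for ergo-1. The signs of the remaining 30 changed in at least 1 setting. With array weights 1 probe set passed, ung-1 (-1.93, adjusted p 0.0392), 1554 probe sets and 2 of the genes had an unadjusted p under 0.05. An intensity trend in the variance model gave 1 call, ung-1 (-2.01, limma adjusted p 0.0118), and the values as deposited gave 6, among them ung-1 (-2.01, 0.0276). In the values as deposited the day counts stay as intensities. There drh-1 was read from its dim probe set, where 5 of the values are such counts. The 435 probe sets at an unadjusted p under 0.05 became 275 genes with the mean of probe sets and 192 probe sets with the dimmest ones left out. With probe sets of several transcripts left out, 21 of the genes remained. Of these 8 had a positive fold change (38% of all named genes in this setting), 1 an unadjusted p under 0.05 (2.19%) and 2 groups apart (6.91%). The Mutator median was -0.34, in place of 0.20, with fewer genes. It rested on mut-15 and on mut-7, the latter then read from its dim probe set (log2 difference -0.66). Without mutant replicate 3 and N2 replicate 2 the numbers were 1197 probe sets and 5 genes at an unadjusted p under 0.05 (5.53% of all named genes) and 13 genes with groups apart (33.6%). The microRNA Argonaute median, of only 2 genes, was then -0.86, in place of -0.042, with alg-1 at -1.24 on its chosen probe set. With single arrays left out, the probe sets at an unadjusted p under 0.05 ranged from 232 to 894, the genes at it from 0 to 3, the genes with a positive fold change from 14 to 30 and those with groups apart from 0 to 8. The median of the 38 genes ranged from -0.083 to 0.18 and that of the nuclear branch from -0.19 to 0.24. The cause of these shifts was not tested. Same-numbered arrays of the genotypes deviated with correlations of -0.19, 0.090 and 0.10, and those of unlike number with -0.21 to 0.11. Deviations within groups of 3 arrays are tied to each other, so these values cannot show whether the numbers pair the samples. A fit with the replicate number as a block gave 323 probe sets and 0 genes at an unadjusted p under 0.05, a median of 0.025 for the 38 genes, 0 calls and an adjusted p of 0.9996 for ung-1.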

Other observations

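The jump of the second rde-12 probe set on N2 replicate 3 was not alone. Among the 22548 probe sets, 6 read at least 10 times higher on N2 replicate 3 than on each of the other 5 arrays, 3 did so on N2 replicate 2 and 0 on each of the remaining 4 arrays. Those of N2 replicate 3 included rde-12, at 1559 against at most 62.7 elsewhere, the neuronal gene unc-119, at 1206 against at most 88.8, cec-6, at 1295 against at most 93.7, and trm-2A, at 1974 against at most 60.2. Those of N2 replicate 2 were clec-52, a C-type lectin gene, at 2866 against at most 182, cpr-2, a cathepsin B-like gene, at 1138 against at most 87.6, and icmt-1, at 3634 against at most 309.8. On the chosen rde-12 probe set N2 replicate 3 did not stand out, at 1448 against 1359 and 1151 on the other N2 arrays. These genes were chosen after their values were seen.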
